A study of Mus musculus with 18 samples.

Results

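The lungs described here came from 6 undosed mice, the vehicle control animals among the 18 arrays of a study of chemicals tested in rodent lung tumour bioassays. They were chosen by their titles alone, and no array of a chemically treated animal was used. All were female B6C3F1 mice, the isogenic F1 hybrid used in rodent bioassays, 18 weeks old after 13 weeks on study. The 3 corn oil controls (animals 22, 24 and 25) received the oil by gavage at 5 ml/kg on 5 days a week, and the 3 feed controls (animals 27, 28 and 29) ate rodent chow without a test chemical on 7 days a week. The groups were pooled and not contrasted. RNA of the right lung lobe of 1 animal was hybridised to each Affymetrix mouse expression array, so that each value is that of a whole mixed tissue.

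The lung is lined in its airways by club, ciliated and goblet cells, and in its air sacs by flat type 1 cells, which carry gas exchange, and rounded type 2 cells, which secrete surfactant. A dense bed of capillaries, fibroblasts that store lipid and lay down matrix, resident macrophages and a thin mesothelial covering make up most of the rest. Pulmonary veins of the mouse carry a sleeve of heart muscle into the lung, and fat, lymph nodes and other tissue lie at the hilum, where the lobes are cut.

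Signals are the authors' values on a log2 scale, in which a difference of 1 is a 2-fold difference. They ran between 2.50 and 14.71 on the 6 arrays. Each of 18193 genes was represented by its probe set with the highest mean, and 13052 of them, 71.7%, lay above the 40th percentile of the array on at least 3 arrays and entered the tests of variation. Probes differ in how strongly they bind, so a rank below is a rank of signals and not of transcript amounts. The arrays had medians of 5.75 to 5.80, and each correlated with its least similar control array at 0.984 or more. The first principal component held 39.75% of the variance between the animals and set corn oil control 25 (21.0) and feed control 27 (12.1) apart from the other 4 animals, which lay between -10.88 and -3.74. Corn oil control 25 had the smallest difference between the 3' and 5' actin probes, 0.417 against 0.512 to 0.726 in the other 5, and feed control 27 the lowest RNA integrity number per the labels, 8.3 against 8.7 to 8.9 in the 4 others with a value. The part of these differences in the results was not tested, and counts that rest on these 2 animals are given with and without them.

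Surfactant and airway secretory genes had the highest signals in undosed lung. Sftpc, which encodes surfactant protein C of type 2 cells, ranked 1st at 14.59 ± 0.02, and Scgb1a1, the club cell secretory protein, ranked 2nd at 14.45 ± 0.04 (means ± SD, n = 6 animals, as for all means below). Lysozyme Lyz1 at 14.28 ± 0.05, the carbonyl reductase Cbr2 at 14.14 ± 0.06, and Ager, the type 1 cell receptor for advanced glycation end products, at 14.00 ± 0.07 also lay among the first 8. Cyp2f2, a cytochrome P450 of club cells, ranked 10 at 13.95 ± 0.03, surfactant protein gene Sftpa1 ranked 12 at 13.91 ± 0.05, and secretoglobin Scgb3a2 ranked 16 at 13.78 ± 0.07. The first 25 also held Lyz2 of macrophages and type 2 cells, Inmt of fibroblasts (13.69 ± 0.08) and Hopx of type 1 cells (13.67 ± 0.04). General cell genes filled most of the other places: Tpt1, Tmsb4x, Tmsb10, Actb (13.97 ± 0.05), Eef1a1 (13.90 ± 0.06), ferritin Fth1, B2m of class I antigen presentation (13.71 ± 0.04), the ribosomal protein genes Rpl37a, Rps29, Rpl41 and Rps3a1, spectrin Sptbn1, the mitochondrial gene ND5 and matrix Gla protein Mgp. The scale had a narrow top: 59 genes had a mean above 13, 1537 above 10 and 2735 below 4, with a median of 6.88.

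The markers of the alveolar and club epithelium lay near the top of the array in every animal. All 14 type 2 cell markers lay above the 80th percentile of genes, against 19.9% of all genes, with a median percentile of 99.4. They ran from Sftpc down to Etv5, a transcription factor of type 2 cell identity, at the 89.6th percentile. All 12 type 1 cell markers lay above that line too (median 97.6), led by Ager, Hopx, Emp2 (12.87 ± 0.09) and Clic5 (12.09 ± 0.11). Of 11 club cell markers, 10 did so (median 99.8), and the exception was Upk3a, a uroplakin of a minor club cell population, at 5.25 ± 0.13. Of the genes that label the tissue as lung, Nkx2-1, the transcription factor of lung epithelium, stood at the 46.8th percentile with 6.62 ± 0.18, while the other 5 stood at 99.7 or above.

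The other airway cells had lower signals. The 12 ciliated cell markers had a median percentile of 60 and spread from Dnah5, a dynein heavy chain, at 6.72 ± 0.15 to the tubulin-binding protein gene Tppp3 at 11.73 ± 0.22. Goblet cell markers had a median percentile of 29.2, basal cell markers 25.1 and neuroendocrine markers 17.0. None of the 5 neuroendocrine markers passed the filter on low signal, and of the basal markers Trp63, which defines those cells, stood at 3.97 ± 0.11 and Krt5 at 5.84 ± 0.24.

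Capillary endothelium ranked beside the alveolar epithelium. All 14 general capillary markers lay above the 80th percentile (median 97.6), among them Ptprb (12.09 ± 0.11) and Sema3c (12.09 ± 0.12). Markers of aerocytes, the large capillary cells next to type 1 cells, had a median percentile of 94.7. Markers of large vessels had a median of 81.6, with von Willebrand factor Vwf at 11.09 ± 0.14, and lymphatic markers one of 59.4, where Lyve1 stood at 11.14 ± 0.41 and Prox1, which defines those vessels, at 3.78 ± 0.17, below the filter. Alveolar fibroblast markers had a median percentile of 97.7, led by Inmt and Limch1 (12.72 ± 0.11). Matrix fibroblast markers followed at 86.9, with the collagen genes Col3a1 at 11.90 ± 0.23 and Col1a2 at 11.30 ± 0.21. Smooth muscle markers had a median of 84.5, with Acta2 at 11.74 ± 0.23, and pericyte markers one of 70.3, with Postn at 11.18 ± 0.08. The place of some of these genes depended on the probe set: with the mean of all its probe sets, Acta2 lay at the 60.2th percentile against the 98.5th, and the fibroblast proteoglycan gene Dcn at the 69.5th against the 96.7th.

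Among immune cells, alveolar macrophage markers ranked highest, with a median percentile of 86.1 and the chitinase-like gene Chil3 at 11.80 ± 0.30. Interstitial macrophage and monocyte markers had a median of 74.3, neutrophil markers 64.3, dendritic cell markers 59.4, B cell markers 57.2, NK cell markers 54.4 and T cell markers 45.9. Single members stood far above these medians: Cd74, the class II invariant chain, at 12.37 ± 0.10, the calprotectin gene S100a8 at 11.73 ± 0.26 and granzyme Gzma at 10.35 ± 0.45. T cell receptor chain Cd3d stood at 8.03 ± 0.18, and Foxp3, which defines regulatory T cells, at 3.74 ± 0.10, below the filter. Class I and II antigen presentation genes had a median percentile of 96.6. In a whole lobe, fewer cells of a type and less RNA in each cell cannot be told apart.

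Some tissues that touch the lung were visible and others were not. Of 13 heart muscle markers, 9 lay above the 80th percentile, with the atrial myosin light chain Myl7 at 11.08 ± 0.37 and cardiac actin Actc1 at 10.93 ± 0.27. Of 9 white fat markers, Car3, a carbonic anhydrase of fat cells, was the only one above that line, at 11.21 ± 0.75, and leptin gene Lep lay below the filter at 3.54 ± 0.18. Ucp1, which defines brown fat, stood at 4.19 ± 0.32 and was also below the filter. With the mean of all its probe sets, Car3 lay at the 76.0th percentile against the 96.7th. The heart muscle gene Myh6 then lay at the 72.8th against the 93.7th, so both fell below the 80th. The median percentiles of the skeletal muscle, cartilage, thymus, liver, stomach and oesophagus, thyroid and nerve lists lay between 24.0 and 27.6. Within these low lists single genes stood higher: Pmp22, a myelin gene that many other cells also use, at 12.63 ± 0.05, and the cartilage leucine-rich protein gene Chad at 8.65 ± 0.37. Xist, expressed from the inactive X chromosome of females, stood at 11.09 ± 0.19. Of 4 listed Y-linked genes, Eif2s3y, Uty and Kdm5d lay below the filter. Sry, also on the chromosome that females lack, passed it with a signal of 5.86 ± 0.18. So did the Y-linked Zfy2, outside the list, at 5.03 ± 0.44, with a 2.36-fold span between animals. A signal that passes the filter at such a level, or a 2-fold span there, is thus not by itself evidence of expression.

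**Figure D1:**
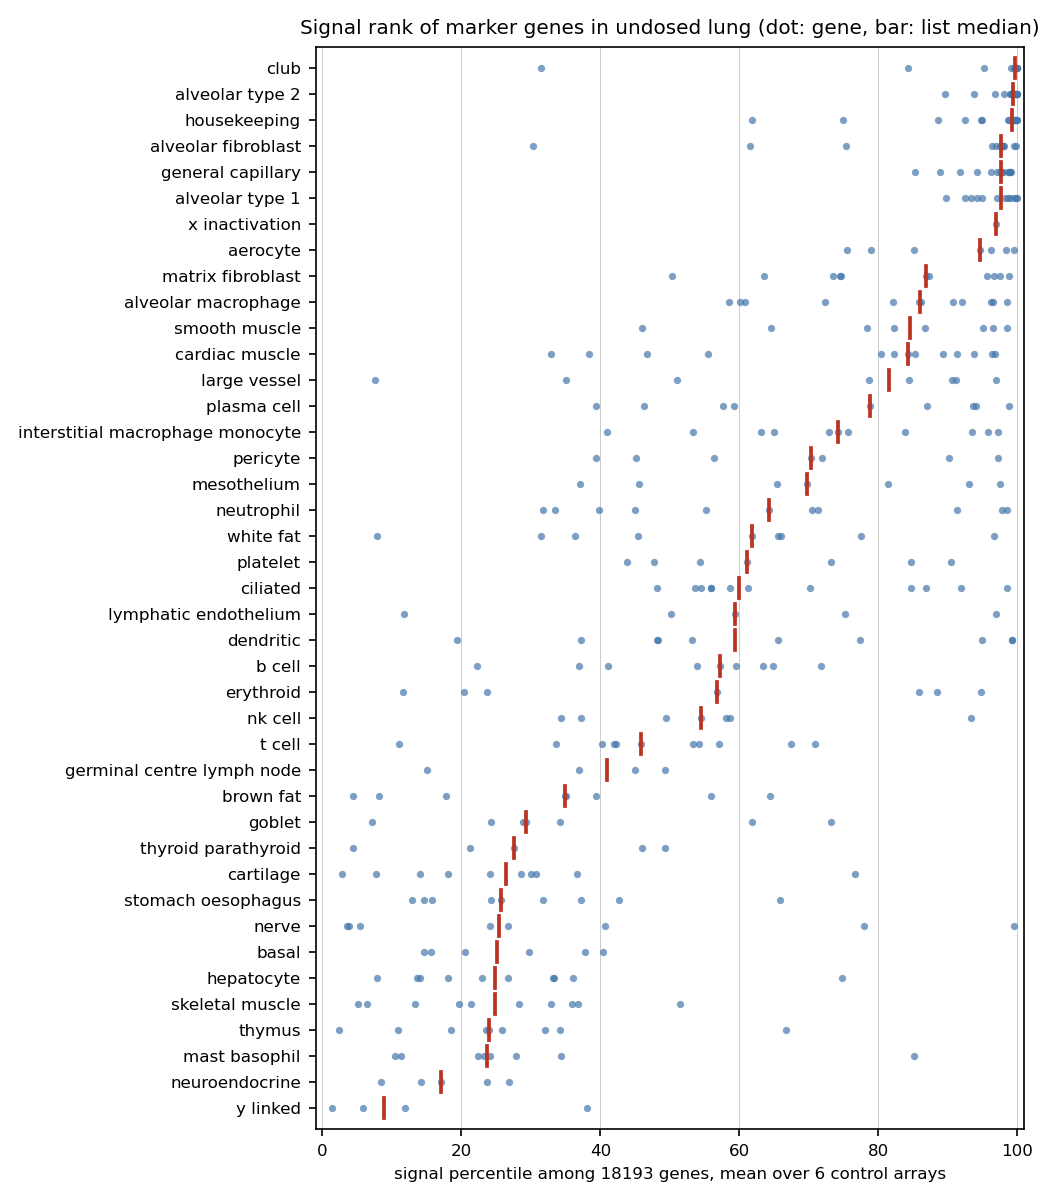
Signal percentile among all genes of each marker gene (points, mean over the 6 control arrays), by list of cell type, tissue or gene set, with the median of each list as a bar. Type 2, club, type 1 and capillary lists sit at the upper end, and the neuroendocrine list (median 17.0) lies lowest among the cell types of the lung.

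Undosed animals differed little in most genes. The SD over 6 animals had a median of 0.145 over the tested genes, a 1.11-fold difference, and 5% of genes lay above 0.306. The highest animal was less than 0.5 above the lowest in 9272 genes, 71% of those tested. The spread depended on signal: the median SD was 0.182 among genes with means of 4 to 6, 0.129 at 8 to 10 and 0.0591 at 13 or more. Whether the top of the scale limits the spread there was not tested. Among genes above the 60th percentile on all arrays, the 10 with the smallest SD were led by Rplp0, a ribosomal stalk protein gene (13.14 ± 0.02), Vdac3, a mitochondrial channel gene (10.80 ± 0.02), and Kat7, a histone acetyltransferase gene (8.83 ± 0.02). The others were Exoc3, Sdc3, Tmsb4x, Rer1, Erp44, Tmem9b and Pitpna. Among 16 housekeeping genes the SD ran between 0.016 for Rplp0 and 0.19 for Tfrc.

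A small set of genes varied far more. In 301 tested genes, 2.31%, the highest animal was at least 2-fold above the lowest, and in 32 at least 4-fold. Genes of low signal entered the 301, among them the Y-linked Zfy2 at 5.03 ± 0.44. The lists below were chosen with earlier results of these data known, so their 2-fold counts describe the listed genes only. A test that sets the variance of each gene against that of genes of like signal (limma, Benjamini-Hochberg adjustment) called 16 genes, 0.123%, and 685 had an unadjusted p under 0.05. The 16 were Clca1, Reg3g, Pck1, Nppa, Ltf, Hspa1a, Dbp, Muc16, Hspa1b, Bpifb1, Bpifa1, Upk3b, Adipoq, Jchain, Car3 and Scgb3a1, which are airway secretory, fat, heart, mesothelial, heat shock, clock and antibody genes. Each varied by more than 1 on the log2 scale within the corn oil controls and within the feed controls alike. The count rested on single animals: with corn oil control 24 left out it was 8, with corn oil control 25 left out 29, with feed control 27 left out 3 and with feed control 28 left out 6. It was 0 under 4 other settings given in the closing section, so the values by animal below carry the description.

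**Figure D2:**
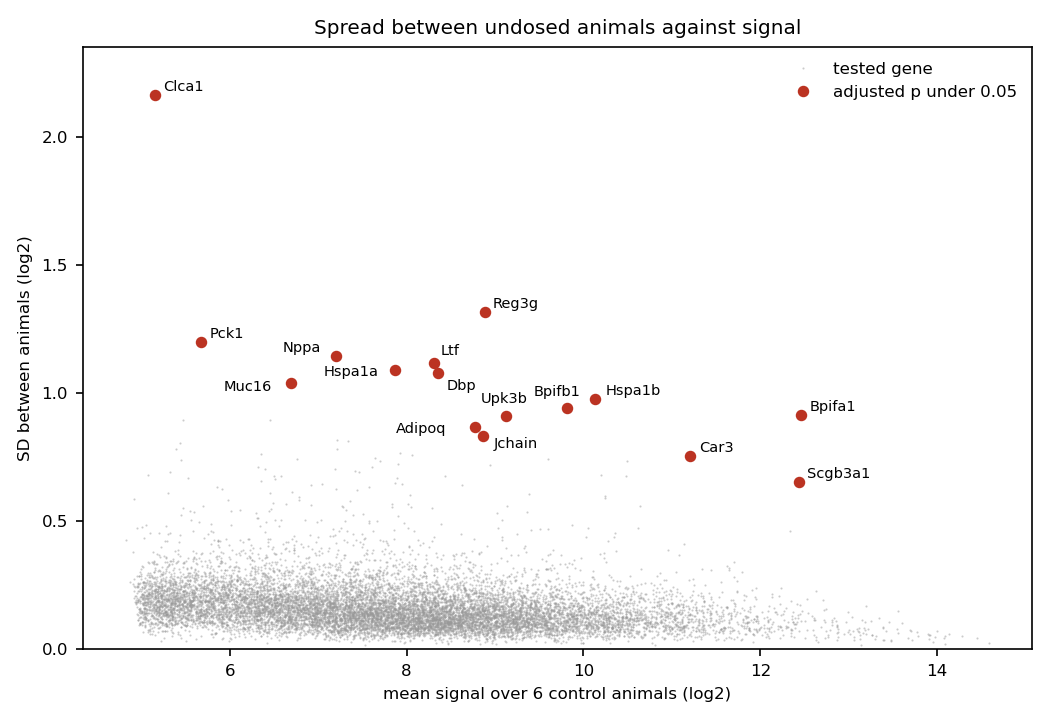
SD over 6 undosed animals (vertical axis, log2 units) against mean signal (horizontal axis, log2) for the tested genes, with the 16 genes called more variable named. Most genes lie near the median SD of 0.145, while Clca1 reaches 2.16.

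Among the 16 called genes were secretory and defence genes of the airways, grouped here after the calls were seen: 1 was a goblet marker, 1 a club marker and 1 a neutrophil marker of the lists, and Reg3g, Bpifa1 and Bpifb1 were in no list. Clca1, a secreted protein of goblet cells, had signals of 5.80, 9.06 and 3.88 in corn oil controls 22, 24 and 25 and of 3.35, 5.31 and 3.48 in feed controls 27, 28 and 29 (SD 2.16, adjusted p = 0.0134). It thus stood at the 4.60th percentile of genes in its lowest animal and at the 82.1st in its highest, a 52.2-fold span. It lay above the filter only in corn oil controls 22 and 24 and feed control 28, and so was tested through its 3 highest animals alone. The low end of the span is below the filter. The other probe set of Clca1 lay below the filter and did not vary (SD 0.13).

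Reg3g, an antibacterial lectin, had 8.57, 10.78 and 8.91 in the corn oil controls and 8.50, 9.69 and 6.85 in the feed controls in the same order (SD 1.32, adjusted p = 0.0145). Lactoferrin gene Ltf, made by airway glands and neutrophils, followed the same order at the top and bottom with 8.00, 10.22 and 8.06 against 7.51, 8.94 and 7.14 (SD 1.11, adjusted p = 0.0254). Both were highest in corn oil control 24, second highest in feed control 28 and lowest in feed control 29. The same 3 places held for Bpifa1, a secreted surface-active defence protein of the upper airways, at 12.26, 13.58 and 12.48 in the corn oil controls and 12.33, 13.19 and 10.94 in the feed controls (SD 0.91, adjusted p = 0.0166). They held too for its relative Bpifb1, between 8.45 and 11.17 (adjusted p = 0.0264), and for the airway secretoglobin Scgb3a1, between 11.38 and 13.08 (adjusted p = 0.0407). A 6.22-fold span in Bpifa1 thus occurred in a gene that lay above the 96th percentile in every animal.

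Goblet cell genes that were not called had a like order. Trefoil factor Tff2 had 7.29, 8.59 and 7.89 in the corn oil controls and 7.40, 8.21 and 6.49 in the feed controls (adjusted p = 0.0929). The gel-forming mucin Muc5b had 7.78, 9.08 and 8.62 against 8.09, 9.31 and 7.72 (adjusted p = 0.0939), so that feed control 28 was slightly above corn oil control 24. Of 5 goblet markers tested, 3 were at least 2-fold apart, against 2.31% of all tested genes. The count stayed at 3 whichever animal was left out. Muc5ac, the other gel-forming mucin of airways, had a low and even signal of 5.49 ± 0.25. The club cell genes Scgb1a1, Scgb3a2 and Cyp2f2 had SDs of 0.04, 0.07 and 0.03, at signals near the top of the scale where the median SD is 0.0591.

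Most fat cell genes varied together and in a like order of animals. All 8 tested white fat markers were at least 2-fold apart, against 2.31% of all tested genes, and 3 were called. The list was chosen with earlier results of these data known, so its share is no independent evidence about fat genes. Of the 8, 6 were highest in corn oil control 24 and 6 were lowest in feed control 29. The lipase gene Lipe had another order, with 7.08, 7.42 and 7.89 in the corn oil controls and 7.91, 8.43 and 7.28 in the feed controls. Adipoq, the adipocyte hormone adiponectin, had 8.38, 10.09 and 8.72 in the corn oil controls and 8.63, 9.32 and 7.53 in the feed controls (SD 0.87, adjusted p = 0.0407). Car3 had 10.99, 12.34 and 11.12 against 11.10, 11.63 and 10.07 (SD 0.75, adjusted p = 0.0407). Pck1, which feeds glycerol synthesis in fat, had 5.16, 7.67 and 4.92 against 5.02, 6.62 and 4.67 (SD 1.20, adjusted p = 0.0415). Like Clca1, Pck1 lay above the filter only in corn oil controls 22 and 24 and feed control 28. Corn oil control 24 was highest, feed control 28 second and feed control 29 lowest in all 3 called genes. As the difference from its mean over 6 animals, the list as a whole stood at 0.91 in corn oil control 24, 0.51 in feed control 28 and -0.71 in feed control 29. Without corn oil control 24, 5 of the 8 stayed 2-fold apart. Of 5 tested brown fat markers, 2 were 2-fold apart, 0 with corn oil control 24 left out and 1 without both corn oil control 25 and feed control 27.

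Heart muscle markers had a partly like order of animals. Nppa, the atrial hormone, had 6.59, 8.30 and 6.44 in the corn oil controls and 6.52, 9.0 and 6.38 in the feed controls (SD 1.14, adjusted p = 0.0264), with feed control 28 and corn oil control 24 above the other 4. Atrial myosin heavy chain Myh6 had 10.51, 11.38 and 10.03 against 9.32, 10.69 and 11.03 (adjusted p = 0.0541), lowest in feed control 27. Of 13 markers tested, 5 were 2-fold apart, against 2.31% of all tested genes. Leaving out corn oil control 24 or feed control 27 left 3, and leaving out both corn oil control 25 and feed control 27 left 1. No tested skeletal muscle marker was 2-fold apart (0 of 4), which is near the 2.31% of all tested genes and no result about that tissue.

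Mesothelial genes had another order. Upk3b, a uroplakin of mesothelium, had 9.25, 8.47 and 10.40 in the corn oil controls and 7.75, 9.35 and 9.49 in the feed controls (SD 0.91, adjusted p = 0.0333), and its second probe set gave the same order closely (r = 0.997 over the 6 animals). Mesothelin gene Msln had 8.01, 7.56 and 8.79 against 6.68, 8.05 and 8.30. Lrrn4, a leucine-rich membrane protein gene, had 6.50, 5.64 and 7.53 against 5.20, 7.19 and 6.66. Muc16, a membrane mucin of mesothelium and airways, had 6.75, 6.60 and 7.84 against 4.76, 7.06 and 7.12 (SD 1.04, adjusted p = 0.0461). All 4 were highest in corn oil control 25 and lowest in feed control 27, the 2 arrays that stood apart. Of 7 mesothelial markers, 5 were 2-fold apart, against 2.31% of all tested genes. Leaving out corn oil control 25 left 4, leaving out feed control 27 left 3 and leaving out both left 2, so 3 of the 5 rested on those 2 animals.

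**Figure D3:**
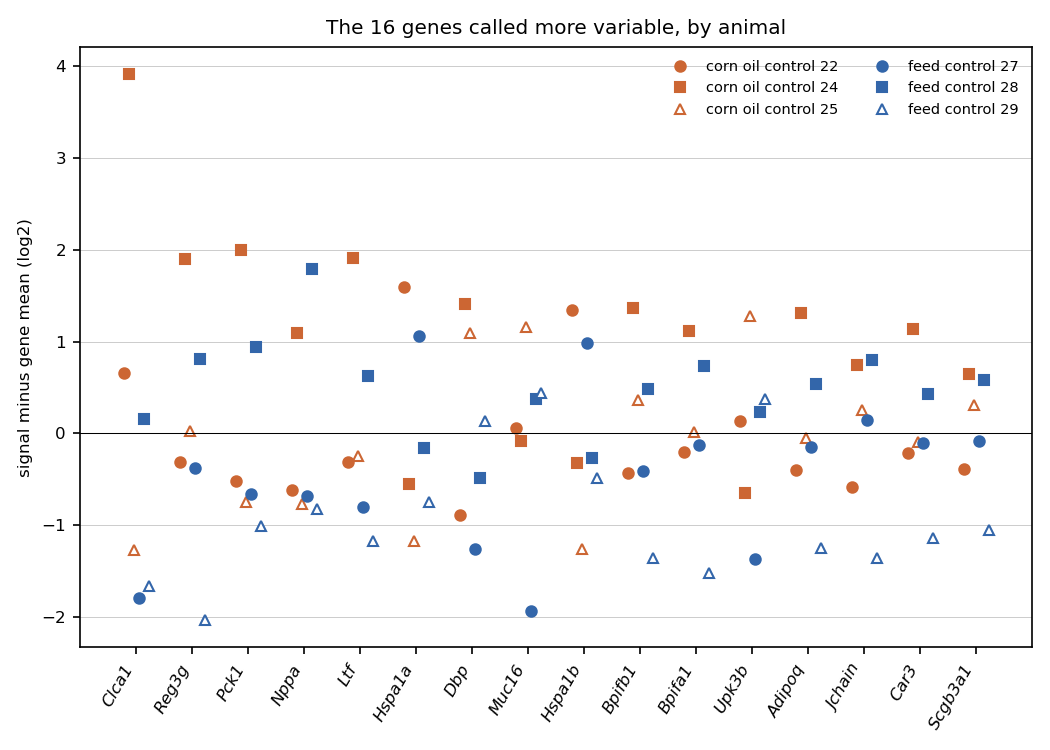
Signal of each of the 16 called genes in each animal, as the difference from the mean over 6 animals (log2 units; corn oil controls 22, 24 and 25, then feed controls 27, 28 and 29). Corn oil control 24 is above the mean in the secretory and fat genes and feed control 29 below it, while Upk3b and Muc16 are highest in corn oil control 25.

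The inducible heat shock genes Hspa1a and Hspa1b, which encode 2 nearly identical copies of the chaperone HSP70, also differed between animals. Hspa1a had 9.46, 7.31 and 6.69 in corn oil controls 22, 24 and 25 and 8.92, 7.70 and 7.11 in feed controls 27, 28 and 29 (SD 1.09, adjusted p = 0.0255). Hspa1b had 11.48, 9.81 and 8.88 against 11.12, 9.86 and 9.65 (SD 0.98, adjusted p = 0.0254), and its 2 other probe sets kept the order closely (r = 0.99 and 0.98). Corn oil control 22 and feed control 27 were highest in both genes and corn oil control 25 lowest, as in the clock gene Arntl. Probe sets of these copies may not tell them apart, so they count as 1 observation. None of the 9 other heat shock genes was 2-fold apart, which is near the 2.31% of all tested genes. Among them Hspa8, the constitutive relative, had 13.25 ± 0.11, Hsp90aa1 12.71 ± 0.19 and the small heat shock protein gene Hspb1 11.70 ± 0.34.

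The promoters of the pair are shown because both genes moved together and because they show how alike the copies are. The windows run from 250 bases before to 50 after the RefSeq start on GRCm38.p6, at chr17:34972107-34972406 for Hspa1a and chr17:34959189-34959488 for Hspa1b, both on the minus strand. Capitals mark the letters GAANNTTC, 2 inverted units of the sequence that heat shock factor binds, searched on both strands and here starting at -104 in both.
Hspa1a: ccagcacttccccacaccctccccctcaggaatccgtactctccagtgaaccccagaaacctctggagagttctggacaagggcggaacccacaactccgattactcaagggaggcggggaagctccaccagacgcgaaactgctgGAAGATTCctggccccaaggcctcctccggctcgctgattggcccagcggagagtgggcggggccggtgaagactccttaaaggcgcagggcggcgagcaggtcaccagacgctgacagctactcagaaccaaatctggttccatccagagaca
Hspa1b: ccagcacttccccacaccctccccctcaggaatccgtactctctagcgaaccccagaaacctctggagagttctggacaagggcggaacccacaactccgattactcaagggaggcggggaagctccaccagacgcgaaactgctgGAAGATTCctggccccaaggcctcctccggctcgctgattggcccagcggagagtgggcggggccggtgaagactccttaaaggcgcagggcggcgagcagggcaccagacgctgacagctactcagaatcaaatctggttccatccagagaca
The 2 windows were identical at 296 of 300 positions. The letters GAANNTTC occurred in 7.86% of 32851 promoter windows and in 7 of 8 heat shock genes with a window. A match is a description of the letters and not a site of binding.

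Clock genes also differed between undosed animals, and in opposed directions. Dbp, a transcription factor at the output of the clock, had 7.47, 9.76 and 9.46 in the corn oil controls and 7.10, 7.87 and 8.49 in the feed controls (SD 1.08, adjusted p = 0.0254), and its other probe set kept the order (r = 0.99). Arntl, the activator BMAL1 that drives the clock, had 8.37, 6.78 and 6.73 against 8.14, 8.09 and 8.06. Corn oil controls 24 and 25 thus had the highest Dbp and the lowest Arntl signals, and feed control 27 and corn oil control 22 the lowest Dbp and the highest Arntl signals.

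Nr1d1, the repressor REV-ERB alpha, was highest in the same 2 animals as Dbp, with 7.70, 8.80 and 9.01 in the corn oil controls and 7.98, 8.46 and 8.38 in the feed controls. Its relative Nr1d2 had 9.77, 10.97 and 10.66 against 9.37, 10.20 and 10.51. The period gene Per3 had 6.97, 8.08 and 8.01 against 7.20, 7.34 and 7.40, and Nfil3, a repressor that opposes Dbp at shared sites, had 6.70, 5.95 and 5.61 against 6.64, 6.92 and 6.07. Corn oil controls 24 and 25 were the highest 2 animals in Nr1d1, Nr1d2 and Per3, and the lowest 2 in Nfil3. Of 15 clock genes tested, 8 were 2-fold apart, against 2.31% of all tested genes. The count was 7 when any 1 of the corn oil controls or feed control 27 was left out. Without both corn oil control 25 and feed control 27 it was 6. The hour at which the animals were sampled is not given in the sources used here.

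The promoters of Arntl and Per3 are shown because the genes ran in opposite directions and hold different clock elements. In Arntl (chr7:113207261-113207560, plus strand) capitals mark TAGGTCA, the element bound by REV-ERB and ROR proteins, whose first base lies at 31 counted from the start. In Per3 (chr4:151044616-151044915, minus strand) capitals mark TTATGNAA, the D-box bound by Dbp and Nfil3, found at -205 and -158. Both windows are on GRCm38.p6.
Arntl: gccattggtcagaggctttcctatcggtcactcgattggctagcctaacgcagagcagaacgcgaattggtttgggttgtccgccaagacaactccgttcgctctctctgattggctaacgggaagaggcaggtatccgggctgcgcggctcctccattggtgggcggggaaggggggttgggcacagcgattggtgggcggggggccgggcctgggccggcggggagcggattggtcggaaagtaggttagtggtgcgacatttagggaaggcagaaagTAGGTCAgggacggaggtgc
Per3: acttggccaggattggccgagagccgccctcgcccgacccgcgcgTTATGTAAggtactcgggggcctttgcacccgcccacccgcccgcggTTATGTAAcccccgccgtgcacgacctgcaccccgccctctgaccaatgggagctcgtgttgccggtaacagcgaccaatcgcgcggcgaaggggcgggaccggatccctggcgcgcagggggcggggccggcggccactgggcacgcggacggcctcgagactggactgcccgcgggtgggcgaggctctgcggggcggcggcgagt
Over all windows TAGGTCA occurred in 2.61% and TTATGNAA in 3.38%, and each was found in 2 of 15 clock genes with a window. The E-box CACGTG, the element of the activators Arntl and Clock, occurred in 7.15% of all windows and in 5 of those 15.

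**Figure D4:**
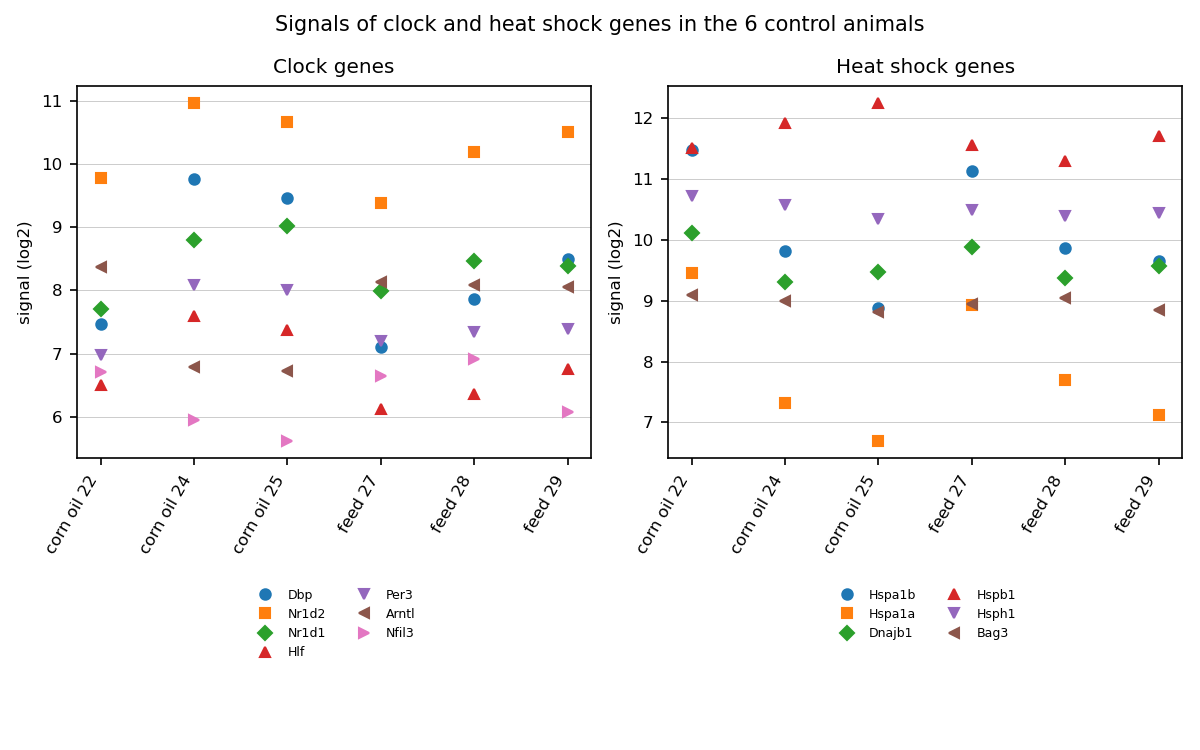
Signals (log2) of clock genes and of heat shock genes by animal, corn oil controls 22, 24 and 25 left of feed controls 27, 28 and 29. Dbp is highest and Arntl lowest in corn oil controls 24 and 25, and Hspa1a and Hspa1b are highest in corn oil control 22 and feed control 27.

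Genes that respond to glucocorticoid differed in yet another pattern. Zbtb16, a transcription factor induced by these hormones, had 10.35, 10.56 and 9.72 in the corn oil controls and 9.53, 10.11 and 11.18 in the feed controls. Pdk4, a brake on glucose oxidation, had 7.05, 8.09 and 6.64 against 6.85, 8.02 and 8.15. Both were highest in feed control 29. In all, 3 of 12 tested members were 2-fold apart, against 2.31% of all tested genes, and 3 with every animal left out in turn. None of the 18 tested immediate early genes, which switch on within minutes of handling or injury, was 2-fold apart. That is near the 2.31% of all tested genes and no result about handling. Fos stood at 9.63 ± 0.21.

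The 2-fold differences of the listed red cell and NK cell markers rested on 1 animal. Corn oil control 22 had the highest signals of red cell genes, with the membrane anion exchanger Slc4a1 at 8.91, against 7.25 and 7.15 in corn oil controls 24 and 25 and 7.26, 6.59 and 6.85 in the feed controls. Alas2, the first enzyme of haem synthesis in red cells, had 11.46, 10.15 and 10.58 against 10.80, 10.41 and 10.29. All 4 tested erythroid markers were 2-fold apart with corn oil control 22, against 2.31% of all tested genes, and 0 without it. Most globin probe sets carry several gene symbols and were not named. The globin gene Hbb-b2, outside the list, had 9.74, 8.33 and 9.08 in the corn oil controls and 9.54, 8.87 and 8.92 in the feed controls. It was highest in corn oil control 22, but feed control 27 also stood more than 2-fold above corn oil control 24. Corn oil control 22 was also highest in NK cell genes, with Gzma at 11.17 against 9.90 to 10.48 in the other 5. Of 7 NK cell markers tested, 3 were 2-fold apart with that animal, against the same 2.31%, and 0 without it. It also had the highest signal of Rsad2, an antiviral interferon-induced gene, 10.37 against 8.51 to 8.92 in the other 5. The other 15 tested interferon genes were less than 2-fold apart, which is near the 2.31% of all tested genes. Of 11 neutrophil markers tested, 5 were 2-fold apart, against 2.31% of all tested genes. The count was 4 or 5 with single animals left out and 3 without both corn oil control 25 and feed control 27. Of the 5, Ltf, Ngp, Camp and Csf3r were highest in corn oil control 24. The collagenase gene Mmp8 was highest in feed control 29 and ranged between 5.86 and 7.01.

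Antibody genes had more than one order of animals. Jchain, which joins secreted IgA and IgM, had 8.28, 9.61 and 9.12 in the corn oil controls and 9.01, 9.66 and 7.50 in the feed controls (SD 0.83, adjusted p = 0.0439). Igha, the IgA heavy chain, had 9.82, 10.80 and 11.02 against 10.53, 11.20 and 9.52, and so was also highest in feed control 28 and lowest in feed control 29. Ighm, the IgM heavy chain, had 9.73, 10.81 and 8.82 against 9.91, 9.46 and 8.86, highest in corn oil control 24, but several of its other probe sets were highest in feed control 27. Of 9 plasma cell markers 4 were 2-fold apart, against 2.31% of all tested genes, and 3 without corn oil control 24. Cell cycle genes, with a median percentile of 39.1, also differed, with 13 of 24 tested at least 2-fold apart, against 2.31% of all tested genes. The count was 8 with corn oil control 22 left out and 10 with feed control 27 left out. Without both corn oil control 25 and feed control 27 it was 9. As the difference from its mean, the list stood at 0.419, 0.181 and 0.323 in the corn oil controls and -0.474, -0.146 and -0.301 in the feed controls. Animal and vehicle cannot be told apart in these values. The proliferation marker Mki67 had 8.14, 7.92 and 7.79 in the corn oil controls and 6.52, 7.24 and 7.00 in the feed controls.

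Of 19 tested genes of drug metabolism, 2 were 2-fold apart, against 2.31% of all tested genes. Cyp1a1, the cytochrome P450 induced through the aryl hydrocarbon receptor, had 6.29, 7.64 and 5.81 in the corn oil controls and 4.93, 5.51 and 7.12 in the feed controls (adjusted p = 0.0684). The other was Cyp2e1, which ranged around 8.04 ± 0.56. Cyp2f2, Aldh1a1 (13.20 ± 0.06), Cyp4b1 (12.81 ± 0.12) and the flavin monooxygenase gene Fmo2 (12.34 ± 0.19) had high signals. None of 14 type 2, 12 type 1, 14 general capillary and 13 alveolar fibroblast markers was 2-fold apart, which is near the 2.31% of all tested genes and no result about these cells. The mean of the type 2 list differed by 0.088 between its highest and lowest animal, and that of the type 1 list by 0.207.

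**Figure D5:**
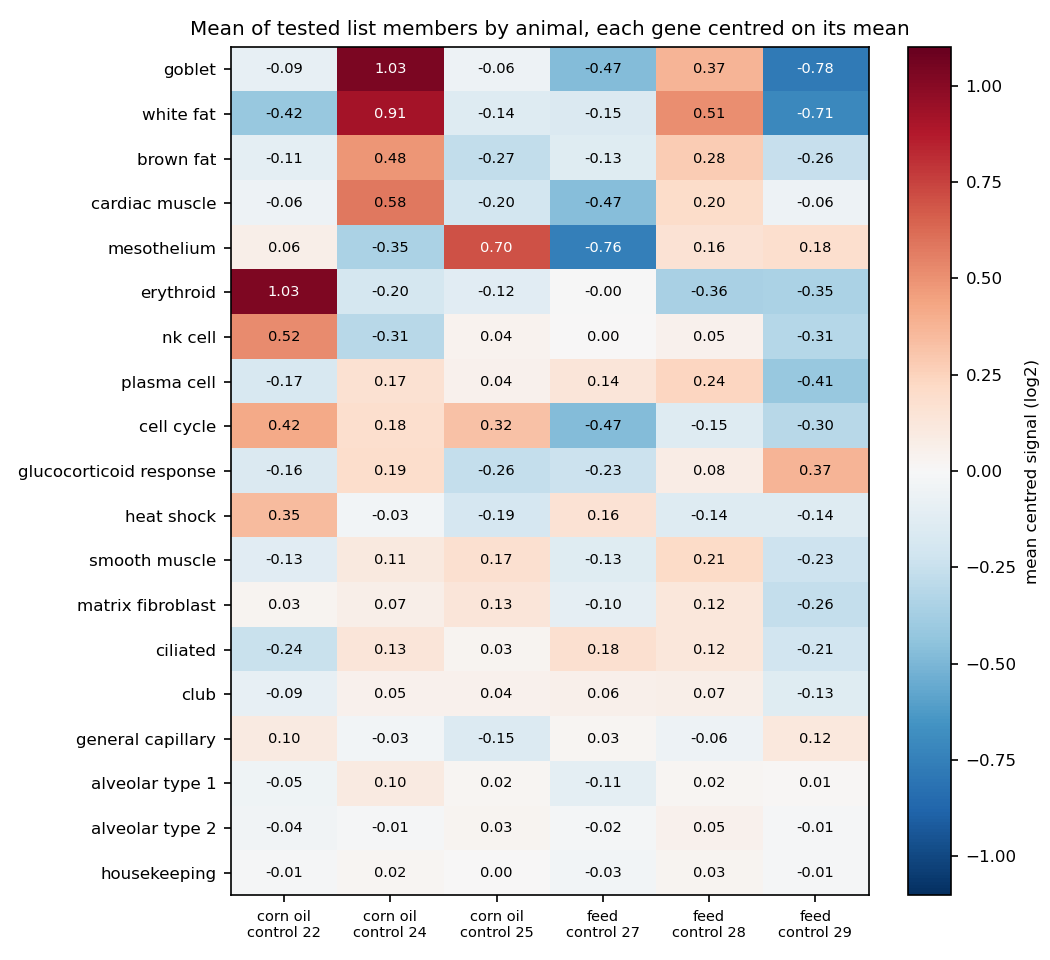
Mean signal of each list in each animal, as the difference from the list's mean over 6 animals (log2 units). The goblet and white fat lists are highest in corn oil control 24 and lowest in feed control 29, the mesothelial list is highest in corn oil control 25 and lowest in feed control 27, and the erythroid list lies 1.03 above its mean in corn oil control 22.

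The animals had unequal parts in the 2-fold genes. Of the 301, corn oil controls 22, 24 and 25 were the highest animal in 73, 95 and 43, and feed controls 27, 28 and 29 in 12, 33 and 45. The lowest animal was corn oil control 25 in 100 and feed control 27 in 99, while feed control 28 was the lowest in 4. Without corn oil control 25 and feed control 27 the number of 2-fold genes was 123. A second probe set above the filter was at hand for 120 of the 2-fold genes. In 68 of them, 56.7%, it had the same highest animal, against 29.0% of 5950 genes in all, and in 63, 52.5%, the same lowest animal, against 32% of all. In these genes the median correlation of the 2 probe sets over the 6 animals was 0.82, against 0.39 over all 5950. Both probe sets were read on the same arrays, so their agreement does not tell animal from array.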

How the data were processed

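The deposited table held the authors' log2 signals of 45101 probe sets on 18 arrays, of which the 6 control columns were used. The scale was judged from the range of the values, since no source used here gives the log base, the summary or the normalization. RNA was kept in RNAlater, purified and biotin-labelled, per the labels' protocols. Scanner intensities were not used here, and the number of arrays limits the precision.

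The platform annotation gave 1 symbol to 34945 probe sets, several to 932 and none to 9160, beside 64 controls. RefSeq identifiers (GRCm38.p6) matched 18032 of 18193 genes. Each gene took its probe set with the highest mean. An intercept-only fit with 5 residual degrees of freedom (limma 3.58.1 in R 4.3.3) gave each variance, set against a robust prior that follows mean signal, with the upper tail p (one-sided), Benjamini-Hochberg adjustment over 13052 genes and a threshold of 0.05. The procedure was tested on simulated data. The p-values measure only the spread between the arrays of these animals, against that of genes of like signal. With 1 array per animal, a difference between animals cannot be told apart from one of RNA preparation, labelling or hybridisation. Promoter windows came from RefSeq.

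Named genes were the 25 with the highest signal, all called genes, the 10 with the smallest SD, and in each of 52 lists up to 4 with the highest signal and up to 2 with the largest SD. Members of lists of tissues outside the lung above the 80th percentile, Xist, Y-linked genes and Actb were added, and clones were left out. Dnah5, Fos, Foxp3, Lep, Mmp8, Msln, Nfil3, Per3, Prox1, Trp63, Ucp1 and Upk3a were named after their values were seen. So were Camp, Csf3r, Hbb-b2, Lipe and Zfy2. The members and lists were chosen with earlier results of these data known. Alternatives changed the scaling, probe set, filter, mean structure, prior and animals.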

Additional observations from a re-analysis of the deposited data

Results flagged for a closer look

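In 16 genes and 4 list means, 1 animal lay far from the other 5, with a gap to the nearest of them beyond what chance gives in about 1 of 20 groups. These were 6.19% of the genes, lists and array measures examined, close to the 1 in 20 that chance gives, so a single one of them is no sign of a trait of its animal. Values are log2 signals with the nearest other animal after them, and list means are differences from the mean over 6 animals.

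Corn oil control 22 stood high in 3 red cell genes, 1 NK cell gene and 1 interferon-induced gene: Slc4a1 at 8.91 against 7.26, Bpgm of red cell glycolysis at 10.34 against 9.32, Fech of haem synthesis at 10.43 against 9.62, Nkg7 of cytotoxic granules at 8.14 against 7.52 and Rsad2 at 10.37 against 8.92. The erythroid list mean was 1.03 there and at most -0.001 in the others.

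Corn oil control 24 stood high in the keratin gene Krt15 at 6.80 against 5.01, which lay below the filter on low signal in most animals. It was also high in the fat synthesis gene Acly at 11.07 against 10.95.

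Corn oil control 25, 1 of the 2 arrays set apart on the first component, stood low in the pericyte receptor gene Pdgfrb at 9.31 against 9.82. It was low too in the lymphocyte genes Il7r at 7.90 against 8.23 and Cd28 at 5.60 against 6.25, and in the lipid antigen presenter Cd1d1 at 7.58 against 7.97. Scg5 was high there at 4.41 against 4.13, below the filter. The pericyte list mean was -0.185 there and 0.015 or more in the others.

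Feed control 27, the other array set apart, stood low in Lyz2 at 14.00 against 14.08 and in Clic5 at 11.88 against 12.10, and high in the muscle light chain gene Mylpf at 5.87 against 5.41. Feed control 29 was low in the muscle actin gene Acta1 at 5.22 against 5.64, and the skeletal muscle list mean was -0.146 there and -0.004 or more in the others. Feed control 28 was high in the germinal centre and lymph node list, at 0.394 against -0.019.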

How the results depend on the processing

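The number of genes above the filter (13052) moved little, and the number of called genes moved most. The median SD (0.145) changed most without both corn oil control 25 and feed control 27 (0.109) and with the mean of all probe sets (0.125). The 16 calls became 38 with no filter on low signal, 37 with the actin 3' minus 5' difference as covariate and 3 with 1 mean per vehicle group. The count by limma was 0 with the mean of all probe sets of a gene, the stricter filter, no trend of variance with signal or a non-robust prior, where 546, 489, 552 and 581 genes had an unadjusted p under 0.05. Leaving out 1 animal (without corn oil control 22, 24 or 25 or feed control 27, 28 or 29) gave 3 to 29 calls, a median SD of 0.130 to 0.147 and 201 to 279 genes at least 2-fold apart. Without both corn oil control 25 and feed control 27, chosen after seeing the data, there were 28 calls, a median SD of 0.109 and 123 genes at least 2-fold apart. The median SD was 0.125 with the mean of all probe sets. The number of 2-fold genes, 301, was 188 with that mean and 200 with the stricter filter. Centring or quantile normalization gave 14 or 16 calls and 321 or 292 genes 2-fold apart. The cause of these changes was not tested. Over single named genes, 3327 SDs kept their side of the threshold, 78 lost a call and 48 gained one. Of 2670 signal percentiles 221 moved, all with the mean of all probe sets, so most of the 267 named genes moved in that setting. The largest shift was that of Ighm, from the 87.1st to the 45.2nd percentile. The counts by gene leave out the settings with no trend of variance or a non-robust prior, in which no gene was called. Of the 14 settings that remain, Bpifa1 and Reg3g stayed called in 12 and Jchain in 6. Clca1 and Pck1 passed the filter in only 9 of these 14 and were called in 9 and 7 of those. No paired analysis was possible because no animal number occurs in both vehicle groups.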

Other observations

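Some genes outside the lists, picked after their values were seen because they matched, had the same highest and lowest animals as genes described above. Bnc1, a transcription factor of mesothelium and other epithelia, had 5.88, 4.87 and 6.44 in corn oil controls 22, 24 and 25 and 3.96, 5.79 and 5.88 in feed controls 27, 28 and 29. Aldh1a2, which makes retinoic acid in mesothelium, had 8.00, 7.47 and 8.74 against 6.84, 8.05 and 8.12, so that both were highest in corn oil control 25 and lowest in feed control 27, like the mesothelial markers. The heart muscle gene Myom2 had 6.81, 7.53 and 6.57 against 5.39, 7.17 and 7.08, highest in corn oil control 24 and lowest in feed control 27, like Myh6.

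Other genes were low in both arrays that stood apart. The dynein light intermediate chain gene Dync1li1 had 7.41 in corn oil control 25 and 7.36 in feed control 27, against 7.74 to 8.60 in the other 4 animals. The checkpoint gene Rad1 had 6.24 and 6.02 there, against 6.98 to 7.55, and the ephrin receptor gene Epha3 had 6.00 and 5.81, against 6.92 to 7.06.

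Probe sets of Ighm went different ways. One had 7.63 in feed control 27 and 5.46 to 5.82 in the other 5 animals, and a second, below the filter in most animals, had 6.31 there and 3.82 to 4.28 in the others, while the one with the highest signal was highest in corn oil control 24. Swsap1, a gene of homologous recombination, had 4.32, 5.33 and 6.83 in the corn oil controls and 6.79, 6.80 and 5.74 in the feed controls, a 5.72-fold span that was not called (adjusted p = 0.0686).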
